A study of Homo sapiens with 24 samples.

Results

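The G1 cyclins, their kinases and the RB pocket proteins were followed at the RNA level as 10 genes chosen by symbol, namely CCND1, CCND3, CCNE1, CCNE2, CDK2, CDK4, CDK6, RB1, RBL1 and RBL2. All 10 were found among the 14493 genes of the count table. RNA-seq libraries came from SKBr3 cells, an established human breast cancer line with amplified ERBB2 (HER2), in 8 groups of 3 libraries. Untreated cells were collected at day 0 (the proliferative control) and at day 7. The other 6 groups were collected at day 7 after a drug that was given again at day 3. The labels of these groups name a refeed at day 3, and those of untreated day-7 cells name none. These drugs were ND-646 (250 nmol/L), an inhibitor of acetyl-CoA carboxylase, TVB-3166 (250 nmol/L), an inhibitor of fatty acid synthase, the CDK4/6 inhibitor palbociclib (1 μmol/L, written Palboclib in the labels), the DNA-damaging agents bleomycin (10 μmol/L) and doxorubicin (10 nmol/L), and the Aurora A inhibitor alisertib (500 nmol/L). The study used them to set senescence after blocked fatty acid synthesis (FASTIS) beside other forms of therapy-induced senescence (TIS). All groups are the same line, and the labels do not say whether the replicates were separate cultures, so p-values measure the spread between these libraries, which may be technical.

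D-type cyclins join CDK4 or CDK6 in response to growth signals and phosphorylate the pocket proteins RB (RB1), p107 (RBL1) and p130 (RBL2). Phosphorylation frees E2F factors, which switch on E-type cyclins and the genes of DNA replication, and cyclin E with CDK2 then completes the step into S phase. In resting cells p130 is the pocket protein best known for holding E2F targets silent within the DREAM complex, while p107 is itself an E2F target.

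Total counts ran from 29405121 to 44316330 per library, and the members' counts ran from 23 to 15612. Levels of the members are CPM, counts scaled to the library total, after TMM scaling across the 24 libraries. Intervals are 95% intervals of the log2 fold-change from a t distribution with 4 degrees of freedom. The edgeR test uses more, so an interval is wider than the test implies. It can include 0 where the unadjusted p is under 0.05. Adjusted p-values are Benjamini-Hochberg values of edgeR's quasi-likelihood test over all genes tested, and a gene is said to rise or fall where this value is under 0.05. Marker levels are CPM without TMM scaling, so they are not on the scale of the members. A library with a low TMM factor reads lower for markers than it would on that scale. All 10 luminal and HER2 markers were listed, with ERBB2 at 4938 to 8393 CPM. Their summed level was 17915 to 19962 CPM in day-0 cells, 11238 to 14354 CPM in ND-646 cells, 9848 to 12745 CPM in bleomycin cells and 13094 to 18121 CPM in the other groups. The markers VIM, COL1A2, PDGFRB, PTPRC, CD3E, CD14 and PECAM1 were not listed. The remaining stromal, immune and endothelial markers moved between groups. FN1 with COL1A1 summed to 40.7 to 110 CPM in day-0 cells and 502 to 770 CPM in palbociclib cells, CD68 was 3.76 to 6.04 CPM in day-0 cells and 39.4 to 43.2 CPM in ND-646 cells, and CDH5 with VWF reached 51.5 CPM in doxorubicin cells. The part of these markers in the results was not tested. ND-646 replicate 1 had the lowest TMM factor of the 24 libraries (0.791, against 0.895 to 1.08 in the others). Values of CDK4, CDK6, RB1 and RBL1 in ND-646 cells, and some numbers of members called, are also given without it. Fold-changes of the other members in ND-646 cells, and the pathway lists, are given with it only.

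Against day-0 cells, CCND1, CDK6 and RBL2 rose and CCND3, CCNE2 and CDK2 fell in all 6 drug groups. RBL1 fell in 5 of the 6, and CCNE1, CDK4 and RB1 each fell in 4. No member rose in some drug groups and fell in others. The libraries are bulk RNA, so fewer cells of a type and less RNA per cell cannot be told apart. The number of members called was 8 in ND-646 cells (3 higher, 5 lower), where 37.9% of all genes tested were called, and 9 in TVB-3166 cells (3 higher, 6 lower), where 55.1% were called. It was 8 in palbociclib cells (3 higher, 5 lower; 53.2% of all genes), and all 10 were called in bleomycin and in doxorubicin cells (3 higher and 7 lower in each), where 49.4% and 48.4% of all genes were called. In alisertib cells 8 members were called (3 higher, 5 lower), against 37.3% of all genes. The median log2 fold-change of the 10 members lay between −0.87 in ND-646 cells and −0.27 in alisertib cells, while the median over all genes tested lay within 0.02 of 0 in each of these comparisons.

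**Figure D1:**
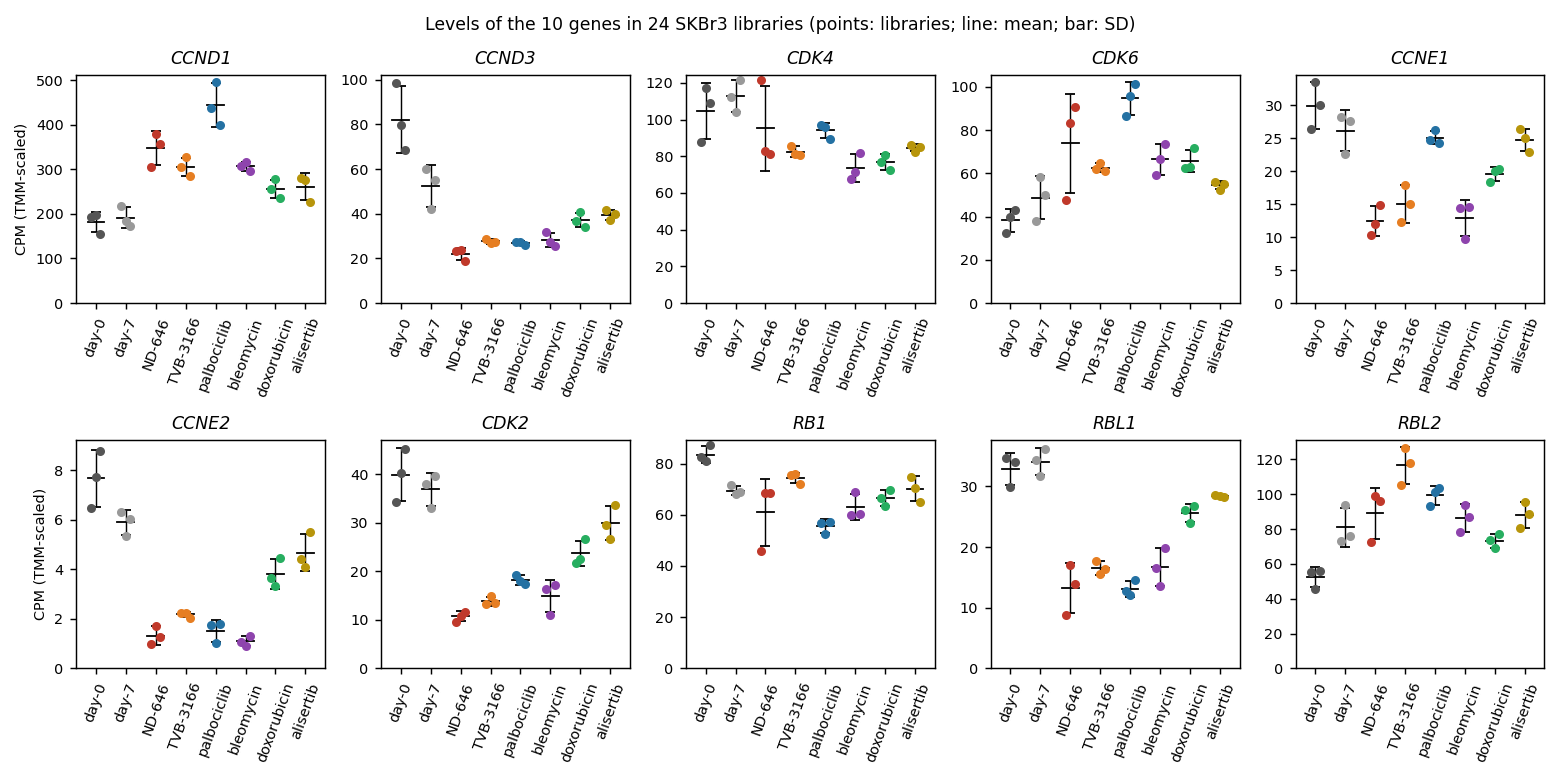
CPM (vertical axes, TMM-scaled, starting at 0) of each of the 10 genes in the 8 groups, with a point for each library, a line at the mean and a bar for the SD of 3 libraries. CCND1, CDK6 and RBL2 sit lowest in day-0 cells, CCND3, CCNE1, CCNE2, CDK2 and RB1 sit highest there, and ND-646 replicate 1 stands apart for CDK4, CDK6 and RB1.

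Between untreated day-7 and day-0 cells none of the 10 was called by edgeR, where 0.587% of all genes were called, although 4 had an unadjusted p under 0.05 and DESeq2 called 2 (CCND3 and RBL2). RBL2 had a log2 difference of 0.64 (interval 0.30 to 0.98, adjusted p = 0.0521) and CCND3 of −0.64 (−1.07 to −0.20, adjusted p = 0.0813). The day-7 libraries of both genes did not overlap the day-0 libraries. Both passed in a fit of all 24 libraries and with the replicate number as a block, though the numbers were not taken to pair these libraries. Time in culture is shared by day-7 cells and the drug groups, so both references are given for the members and for the counts of the pathway lists. Refeeding at day 3, which the labels name for the drug groups only, cannot be told apart from drug against either reference.

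**Figure D2:**
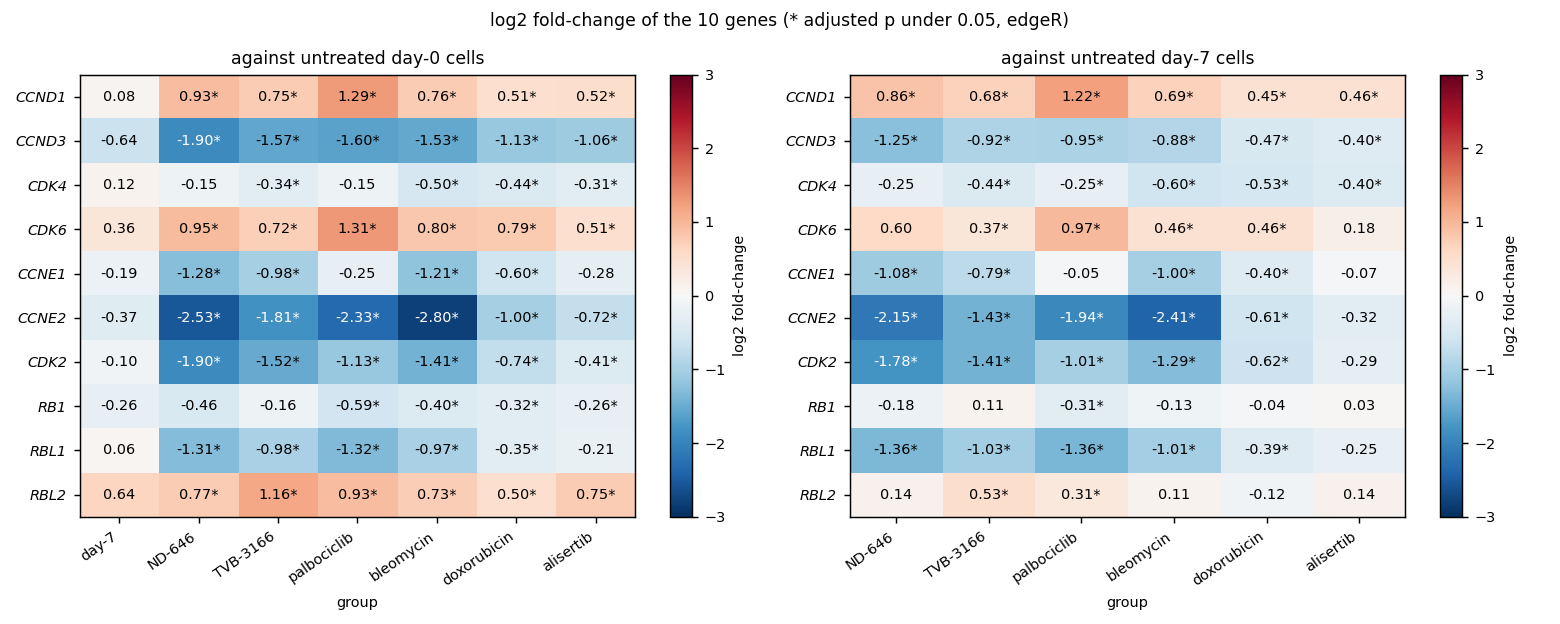
log2 fold-change (colour and printed value) of the 10 genes against untreated day-0 cells (left) and day-7 cells (right), with a star at an adjusted p under 0.05 by edgeR. CCNE2 has the deepest values, down to −2.80 in bleomycin cells, and RBL2 loses most of its stars when day-7 cells are the reference.

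The D cyclins moved in opposite directions. CCND1 (gene 595, GRCh37 chromosome 11, 69455924 to 69469242, + strand) encodes cyclin D1, and its CPM was 193, 197 and 155 in day-0 cells and 218, 184 and 173 in day-7 cells. It was 306, 379 and 358 in ND-646 cells, 305, 327 and 285 in TVB-3166 cells and 437, 496 and 398 in palbociclib cells. It was 306, 317 and 296 in bleomycin cells, 255, 278 and 236 in doxorubicin cells and 281, 277 and 226 in alisertib cells. Each drug-treated library was above each untreated one, and palbociclib cells had the highest level. The fold-change against day-0 cells was 2.44 in palbociclib cells (log2 1.29 ± 0.12, SE, adjusted p = 1.57e-05), 1.91 in ND-646 cells (0.93 ± 0.16, adjusted p = 0.00254) and 1.42 to 1.69 in the other 4 groups. Against day-7 cells CCND1 also rose in all 6 groups, by log2 0.45 to 1.22, though the alisertib call was lost without day-7 replicate 3 or alisertib replicate 2. Among the 7 neighbouring pairs in the order of group means, doxorubicin and day-7 cells differed (adjusted p = 0.00352), and in 4 of the 7 the libraries overlapped. CCND1 shares 10.4% of its exon bases with LTO1 on the opposite strand, and since it is not stated whether reads were counted by strand, reads there may belong to either gene.

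CCND3 (gene 896, chromosome 6, 41902672 to 42018095, − strand) encodes cyclin D3. Its CPM was 98.3, 79.6 and 68.5 in day-0 cells and 60.1, 42.1 and 55.2 in day-7 cells. It was 23.4, 23.9 and 19.0 in ND-646 cells, 28.8, 26.8 and 27.2 in TVB-3166 cells and 27.5, 27.5 and 26.1 in palbociclib cells. It was 31.7, 27.5 and 25.7 in bleomycin cells, 36.7, 40.6 and 34.1 in doxorubicin cells and 41.6, 37.2 and 39.7 in alisertib cells. All drug-treated libraries lay below all untreated ones, and the 3 ND-646 libraries lay lowest of all. CCND3 was 3.73-fold lower than at day 0 in ND-646 cells (log2 −1.90 ± 0.18, adjusted p = 0.000113) and 2.09-fold lower in alisertib cells (−1.06 ± 0.13, adjusted p = 0.000319). Against day-7 cells it was 2.37-fold lower in ND-646 cells and 1.32-fold lower in alisertib cells (adjusted p = 0.0396), and the latter call was lost without any of 5 of the 6 libraries. Alisertib and day-7 cells were the neighbours in the order that differed.

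The shift between the D cyclins also showed within single libraries, where scaling between libraries plays no part. Expressed as CPM per kb of exon, CCND1 was 2.38 to 2.99 times CCND3 in day-0 libraries and 3.79 to 5.28 times in day-7 libraries. The ratio was 15.8 to 22.7 in ND-646, 18.5 to 21.8 in palbociclib, 12.6 to 14.7 in TVB-3166 and 11.7 to 14.0 in bleomycin libraries. It was 8.26 to 8.40 in doxorubicin and 6.88 to 9.0 in alisertib libraries. No drug group overlapped the untreated groups. For each group against day 0 the exact two-sided permutation test gave p = 0.1, the smallest that 3 libraries against 3 allow. These ratios, and those below, were chosen after the values had been seen.

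The partner kinases of the D cyclins differed from each other. CDK6 (gene 1021, chromosome 7, 92234235 to 92465887, − strand) had 32.3, 39.6 and 42.9 CPM in day-0 cells and 38.1, 58.2 and 50.1 CPM in day-7 cells. It had 47.9, 83.2 and 90.7 CPM in ND-646 cells, 61.9, 64.9 and 61.2 CPM in TVB-3166 cells and 86.6, 95.9 and 102 CPM in palbociclib cells. It had 59.4, 66.4 and 73.6 CPM in bleomycin cells, 62.5, 63.1 and 71.8 CPM in doxorubicin cells and 56.0, 52.5 and 55.3 CPM in alisertib cells. Each drug-treated library was above the day-0 libraries, and 2 day-7 libraries reached into the range of the drug groups. The fold-change over day 0 was 2.48 in palbociclib cells (log2 1.31 ± 0.12, adjusted p = 1.31e-05) and 1.93 in ND-646 cells (0.95 ± 0.25, adjusted p = 0.0155). The ND-646 call was lost without day-0 replicate 1, day-0 replicate 2 or ND-646 replicate 3, and without ND-646 replicate 1 the value was 1.18 (adjusted p = 7.52e-05). Against day-7 cells CDK6 rose in 4 groups and not in ND-646 (log2 0.60, interval −0.12 to 1.32, adjusted p = 0.106) or alisertib cells (0.18, −0.18 to 0.54, adjusted p = 0.358). Without ND-646 replicate 1 the ND-646 value was 0.83 (adjusted p = 0.000879). The TVB-3166 call against day 7 (0.37, adjusted p = 0.0337) was lost without any of 5 of its 6 libraries, and the bleomycin call (0.46, adjusted p = 0.0325) without any of 4. TVB-3166 and alisertib cells were the neighbours in the order that differed (adjusted p = 0.038).

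CDK4 (gene 1019, chromosome 12, 58141510 to 58149796, − strand) had a narrow range over the 8 groups, 1.53-fold from the highest mean to the lowest. Its CPM was 87.9, 117 and 109 in day-0 cells and 112, 104 and 122 in day-7 cells, 122, 82.7 and 81.0 in ND-646 cells and 96.8, 95.9 and 89.6 in palbociclib cells. TVB-3166 and alisertib libraries held 80.9 to 86.4 CPM, and bleomycin and doxorubicin libraries 67.4 to 82.0 CPM. ND-646 replicate 1 was as high as the untreated libraries, whereas the other 2 ND-646 libraries lay below them. CDK4 fell against day 0 in TVB-3166 (log2 −0.34), bleomycin (−0.50), doxorubicin (−0.44) and alisertib cells (−0.31, adjusted p = 0.044), but the alisertib call was lost under 4 other processing settings and without any of 5 of its 6 libraries, and the TVB-3166 call without any of 4. In ND-646 cells the value was −0.15 (−0.69 to 0.39, adjusted p = 0.586), and without ND-646 replicate 1 it was −0.36 (adjusted p = 0.044). In palbociclib cells it was −0.15 (−0.46 to 0.16, adjusted p = 0.268) against day 0 and −0.25 (adjusted p = 0.0238) against day 7, the latter lost without any of 3 libraries. TSPAN31 overlaps 44.2% of the CDK4 exon bases on the opposite strand, so the CDK4 count is uncertain to that extent. Per kb, CDK6 was 0.0855 to 0.0993 of CDK4 in day-0 libraries and 0.226 to 0.286 in palbociclib libraries, and CDK4 remained above CDK6 in all 24. The ratio was 0.0994 to 0.283 in ND-646, 0.182 to 0.203 in TVB-3166 and 0.223 to 0.235 in bleomycin libraries. It was 0.197 to 0.251 in doxorubicin, 0.161 to 0.165 in alisertib and 0.0857 to 0.141 in day-7 libraries.

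The E cyclins fell by different amounts. CCNE2 (gene 9134, chromosome 8, 95891998 to 95908906, − strand), cyclin E2, had the widest range of the 10 members over the 8 group means, 7.02-fold from the highest to the lowest. Its CPM was 6.48, 7.74 and 8.79 in day-0 cells and 6.32, 5.33 and 6.03 in day-7 cells. It was 0.978, 1.72 and 1.26 in ND-646 cells, 2.24, 2.25 and 2.05 in TVB-3166 cells and 1.74, 1.02 and 1.79 in palbociclib cells. It was 1.08, 0.894 and 1.31 in bleomycin cells, 3.65, 3.31 and 4.47 in doxorubicin cells and 4.40, 4.08 and 5.51 in alisertib cells. The libraries of ND-646, TVB-3166, palbociclib and bleomycin cells all lay below those of doxorubicin and alisertib cells, and the alisertib libraries reached up to the day-7 range. CCNE2 was 6.96-fold lower than at day 0 in bleomycin cells (log2 −2.80 ± 0.24, adjusted p = 4.89e-05), 5.79-fold lower in ND-646 cells (−2.53 ± 0.28, adjusted p = 0.000245) and 5.03-fold lower in palbociclib cells (−2.33 ± 0.25, adjusted p = 3.59e-05). In alisertib cells it was 1.64-fold lower (−0.72 ± 0.18, adjusted p = 0.0116), a call lost without alisertib replicate 2, and against day 7 it did not pass there (−0.32, −0.78 to 0.14, adjusted p = 0.195). In the order of levels, doxorubicin and TVB-3166 cells were the neighbours that differed (adjusted p = 0.00591). INTS8 on the opposite strand covers 37% of the CCNE2 exon bases, and CCNE2 had the lowest counts of the 10, down to 23 in a library.

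CCNE1 (gene 898, chromosome 19, 30302898 to 30315219, + strand), cyclin E1, separated the drugs differently. Its CPM was 26.4, 33.4 and 30.0 in day-0 cells and 28.2, 22.5 and 27.6 in day-7 cells. It was 10.3, 12 and 14.8 in ND-646 cells, 12.2, 17.9 and 14.9 in TVB-3166 cells and 14.4, 9.74 and 14.6 in bleomycin cells. It was 24.7, 26.3 and 24.3 in palbociclib cells, 18.3, 19.9 and 20.3 in doxorubicin cells and 26.3, 24.9 and 23.0 in alisertib cells. Palbociclib and alisertib libraries overlapped the day-7 libraries, and the other 4 drug groups lay below all untreated libraries. Against day 0, CCNE1 was 2.42-fold lower in ND-646 cells (log2 −1.28 ± 0.19, adjusted p = 0.00103), 2.31-fold lower in bleomycin cells, 1.98-fold lower in TVB-3166 cells and 1.52-fold lower in doxorubicin cells. The value was −0.25 in palbociclib cells (−0.57 to 0.06, adjusted p = 0.0812) and −0.28 in alisertib cells (−0.59 to 0.03, adjusted p = 0.0752), and both passed without day-0 replicate 1. Against day 7 the values were −0.05 (−0.34 to 0.25) and −0.07 (−0.36 to 0.23). In the order of levels, alisertib and doxorubicin cells (adjusted p = 0.0236) and doxorubicin and TVB-3166 cells (adjusted p = 0.037) were the neighbours that differed. Per kb, CCNE1 was 6.09 to 7.72 times CCNE2 in day-0 libraries and 24.2 to 46.2 times in palbociclib libraries. The ratio was 19.5 to 23.9 in bleomycin, 12.5 to 20.9 in ND-646 and 9.76 to 14.3 in TVB-3166 libraries. It was 8.11 to 10.8 in doxorubicin, 7.45 to 10.9 in alisertib and 7.55 to 8.17 in day-7 libraries.

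CDK2 (gene 1017, chromosome 12, 56360565 to 56366573, + strand), the kinase of the E cyclins, fell in all 6 drug groups against day 0. Its CPM was 34.3, 40.2 and 45.2 in day-0 cells and 38.0, 33.2 and 39.7 in day-7 cells. It was 9.65, 10.8 and 11.7 in ND-646 cells, 13.2, 14.9 and 13.5 in TVB-3166 cells and 19.3, 18.0 and 17.4 in palbociclib cells. It was 16.4, 11.1 and 17.2 in bleomycin cells, 21.8, 22.6 and 26.7 in doxorubicin cells and 29.5, 26.8 and 33.8 in alisertib cells. The ND-646 libraries lay below the other groups except for 1 bleomycin library within their range, and 1 alisertib library reached the day-7 range. CDK2 was 3.73-fold lower than at day 0 in ND-646 cells (log2 −1.90 ± 0.17, adjusted p = 7.84e-05), 2.86-fold lower in TVB-3166 cells (−1.52 ± 0.13, adjusted p = 3.78e-06) and 2.18-fold lower in palbociclib cells (−1.13 ± 0.12, adjusted p = 4.19e-05). In alisertib cells it was 1.33-fold lower (−0.41 ± 0.13, adjusted p = 0.0255), and this call was lost without any of 4 of the 6 libraries. Against day 7 the alisertib value was −0.29 (−0.58 to 0.01, adjusted p = 0.0811), which passed with the replicate number as a block, in a comparison where same-numbered libraries counted as pairs. Alisertib and doxorubicin cells (adjusted p = 0.0466) and doxorubicin and palbociclib cells (adjusted p = 0.0252) were the neighbours in the order that differed. A long non-coding RNA on the opposite strand shares 14.5% of the CDK2 exon bases.

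The pocket proteins p107 and p130 moved apart. RBL1 (gene 5933, chromosome 20, 35624752 to 35724400, − strand) had 34.7, 29.9 and 34.1 CPM in day-0 cells and 34.3, 31.7 and 36.2 CPM in day-7 cells. It had 8.76, 17.0 and 13.9 CPM in ND-646 cells, 17.7, 15.6 and 16.3 CPM in TVB-3166 cells and 12.7, 12.1 and 14.6 CPM in palbociclib cells. It had 16.5, 13.6 and 19.9 CPM in bleomycin cells, 26.2, 23.9 and 26.8 CPM in doxorubicin cells and 28.5, 28.4 and 28.3 CPM in alisertib cells. Each drug-treated library was below each untreated one, and doxorubicin and alisertib cells lay between the untreated cells and the other 4 drug groups. RBL1 was 2.5-fold lower than at day 0 in palbociclib cells (log2 −1.32 ± 0.12, adjusted p = 1.39e-05), 2.48-fold lower in ND-646 cells (−1.31 ± 0.24, adjusted p = 0.00302) and 1.27-fold lower in doxorubicin cells (−0.35 ± 0.10, adjusted p = 0.0173). The doxorubicin call was lost without doxorubicin replicate 2 and when all 24 libraries were fitted together. Without ND-646 replicate 1 the ND-646 value was −1.09 (adjusted p = 0.00018). The alisertib value was −0.21 (−0.48 to 0.05, adjusted p = 0.099) against day 0 and −0.25 (adjusted p = 0.0587) against day 7, the latter passing with the replicate number as a block. Bleomycin and doxorubicin cells were the neighbours in the order that differed (adjusted p = 0.0295).

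RBL2 (gene 5934, chromosome 16, 53467889 to 53525560, + strand) had 55.4, 45.7 and 55.7 CPM in day-0 cells and 73.1, 93.7 and 76.2 CPM in day-7 cells. It had 72.3, 99.2 and 95.8 CPM in ND-646 cells, 105, 126 and 118 CPM in TVB-3166 cells and 93.3, 102 and 103 CPM in palbociclib cells. It had 78.1, 93.9 and 86.7 CPM in bleomycin cells, 73.7, 69.2 and 77.2 CPM in doxorubicin cells and 80.5, 95.5 and 88.6 CPM in alisertib cells. The day-0 libraries lay below all others, the TVB-3166 libraries lay above all others, and the day-7 libraries overlapped those of 5 drug groups. RBL2 was 2.24-fold higher than at day 0 in TVB-3166 cells (log2 1.16 ± 0.11, adjusted p = 9.59e-06), 1.90-fold higher in palbociclib cells (0.93 ± 0.10, adjusted p = 4.27e-05) and 1.41- to 1.7-fold higher in the other 4 groups. Against day 7 it rose in TVB-3166 (0.53 ± 0.11, adjusted p = 0.00157) and palbociclib cells (0.31 ± 0.10, adjusted p = 0.0245), the latter lost without any of 3 libraries. The values against day 7 were 0.14 in ND-646, 0.11 in bleomycin, −0.12 in doxorubicin and 0.14 in alisertib cells, with adjusted p-values of 0.368 to 0.559. Doxorubicin and day-0 cells were the neighbours in the order that differed (adjusted p = 0.00259). On the opposite strand, AKTIP shares 7.51% of the RBL2 exon bases and another annotated gene 8.89%, so reads there may not belong to RBL2.

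Within a library and per kb, RBL2 was 1.12 to 1.20 times RBL1 at day 0 and 1.55 to 2.17 times at day 7. The ratio was 4.27 to 6.06 in ND-646, 4.36 to 5.95 in TVB-3166, 5.20 to 6.16 in palbociclib and 3.19 to 5.07 in bleomycin libraries. It was 2.06 to 2.13 in doxorubicin and 2.07 to 2.47 in alisertib libraries. All groups lay above day 0 (exact permutation p = 0.1 for each), and doxorubicin and alisertib libraries overlapped the day-7 libraries.

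The bases before both genes are shown because RBL1 and RBL2 moved in opposite directions and because the letters of E2F sites could be looked for in them. The RefSeq promoter table (GRCh38.p14, 250 bases before to 50 after a start) matched 7 of the 10 members, with 11 starts. CCND1, CCNE2 and CDK2 had no entry. The single RB1 start lay 172699 bases from the start of the gene and 2 of the CCND3 starts lay 108227 and 110830 bases from it, so the bases before the first exon of RB1 were not searched. The letters TTTCCCGC, TTTCGCGC, TTTGCCGC and TTTGGCGC were searched on both strands. They were found at 1 of the 11 starts, that of RBL1, and in 3.31% of the 35116 promoters of the table. RBL1 held 2 matches that do not overlap, starting 26 and 16 bases before the start site. The letters TTTGAA of the cell cycle homology region (CHR) were found at 1 of the 11 starts, 25 bases into RBL2, and in 15.2% of all promoters. A match is not shown to be a site, and a window without these letters says nothing about the factor. The 60 bases before the start are given 5′ to 3′ on the gene's strand, with E2F letters in capitals, for RBL1 at chr20:37095998-37096057 (− strand) and RBL2 at chr16:53434411-53434470 (+ strand).
RBL1: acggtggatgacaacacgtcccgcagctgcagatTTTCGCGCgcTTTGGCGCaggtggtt
RBL2: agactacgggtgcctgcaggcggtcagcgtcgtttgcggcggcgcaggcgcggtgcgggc

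RB1 (gene 5925, chromosome 13, 48877880 to 49173572, + strand) had the narrowest range of the 10 members, 1.5-fold from the highest group mean to the lowest. Its CPM was 82.4, 80.8 and 87.2 in day-0 cells and 71.5, 67.9 and 68.8 in day-7 cells, 45.9, 68.5 and 68.6 in ND-646 cells and 56.8, 52.6 and 57.3 in palbociclib cells. The other 4 drug groups held 59.8 to 75.8 CPM. The day-0 libraries were above all others, and ND-646 replicate 1 was the lowest of the 24. Against day 0, RB1 fell in palbociclib (log2 −0.59 ± 0.09, adjusted p = 0.000309), bleomycin (−0.40), doxorubicin (−0.32) and alisertib cells (−0.26, adjusted p = 0.0406), the last lost without any of 5 of the 6 libraries. Against day 7 it fell in palbociclib cells (−0.31 ± 0.08, adjusted p = 0.00739), and the other 5 values lay between −0.18 and 0.11. In ND-646 cells the value against day 0 was −0.46 (−0.96 to 0.05, adjusted p = 0.0783), and without ND-646 replicate 1 it was −0.29 (adjusted p = 0.0355). No neighbours in the order of RB1 or CDK4 levels differed.

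Set against untreated cells of day 7, the members called numbered 6 in ND-646 cells (1 higher, 5 lower; 34.2% of all genes), 9 in TVB-3166 cells (3 higher, 6 lower; 51.5%) and 9 in palbociclib cells (3 higher, 6 lower; 44.8%). They numbered 8 in bleomycin cells (2 higher, 6 lower), against 45.6% of all genes, and 8 in doxorubicin cells (2 higher, 6 lower), against 43.4%. Without ND-646 replicate 1 the ND-646 number was 8, with CDK4 (−0.47, adjusted p = 0.00151) and CDK6 added, and the RB1 value was −0.02. That fit called 7618 of 13855 genes, against 4692 of 13704 with all 6 libraries. The doxorubicin calls of CCNE1 and CCNE2 were lost without doxorubicin replicate 1, that of CCNE1 also without day-7 replicate 3, and that of CDK6 without doxorubicin replicate 3. In alisertib cells 3 members were called, with CCND1 higher and CCND3 and CDK4 lower, against 19.0% of all genes. With the replicate number as a block 5 were called, where 4141 of 13795 genes were called. With all 24 libraries fitted together, CDK6 was lost in TVB-3166 cells, CDK4 and RBL2 in palbociclib cells, CDK6 and RBL1 in doxorubicin cells and CCND3 in alisertib cells. In the fits of 6 libraries each, CCND1 and CCND3 were called against both references in all 6 drug groups.

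Per kb of exon, the order among members also changed. In day-0 cells CCND1 (38.2 ± 4.85 CPM per kb, SD, n = 3) and CDK4 (33.8 ± 4.89) stood highest, followed by CCND3 (14.3 ± 2.62), RB1 (13 ± 0.517), CCNE1 (12.2 ± 1.43) and CDK2 (10.3 ± 1.41), and then RBL2 (6.45 ± 0.699), RBL1 (5.52 ± 0.440), CDK6 (3.13 ± 0.442) and CCNE2 (1.74 ± 0.263). In palbociclib cells CCND1 was at 93.2 ± 10.3 CPM per kb, RBL2 at 12.3 ± 0.662, CCNE1 at 10.2 ± 0.426, CDK6 at 7.74 ± 0.614 and CCND3 at 4.69 ± 0.143. RBL2 thus stood above RB1 (8.64 ± 0.402) and CDK6 above CCND3 in palbociclib cells, the reverse of day 0. Both orders were also reversed in the means of ND-646, TVB-3166 and bleomycin cells, and neither in those of doxorubicin, alisertib and day-7 cells. The alisertib means of RBL2 (10.87 ± 0.923) and RB1 (10.89 ± 0.761) were nearly level. RB1 was 0.924 to 1.17 times RBL2 in alisertib and 0.914 to 1.23 times in day-7 libraries, so libraries of both groups lay on either side. In bleomycin cells CDK6 stood at 5.43 ± 0.579 and CCND3 at 4.91 ± 0.537.

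The 2 inhibitors of fatty acid synthesis were next compared with each other. None of the 10 members was called between TVB-3166 and ND-646 cells, where 0.717% of all genes were called, and DESeq2 called 0, although 4 members had an unadjusted p under 0.05. These were CCND3 (log2 0.32, interval −0.06 to 0.70), CCNE2 (0.72, −0.03 to 1.47), CDK2 (0.37, −0.03 to 0.78) and RBL2 (0.39, −0.04 to 0.82), each higher in TVB-3166 cells. Their intervals include 0 because they use fewer degrees of freedom than the test. Without ND-646 replicate 1, CDK6 was lower in TVB-3166 cells (−0.47, adjusted p = 0.00587), where 1518 of 13792 genes were called. The intervals reached 1.47 for CCNE2 and 0.98 for RBL1, so they did not exclude differences of that size.

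Palbociclib, which acts on the CDK4/6 proteins themselves, was compared directly with each other drug. Against ND-646 cells 2 members were called, CCNE1 (log2 1.02 ± 0.16, adjusted p = 0.00453) and CDK2 (0.77 ± 0.14, adjusted p = 0.00799), both higher in palbociclib cells, and 25.2% of all genes were called. Without ND-646 replicate 1 both calls stood, and CCND3 and RB1 were added, where 5859 of 13877 genes were called. Against TVB-3166 cells 6 members were called, where 40.2% of all genes were called. CCND1 (0.54), CCNE1 (0.74), CDK2 (0.40) and CDK6 (0.60) were higher and RB1 (−0.42) and RBL1 (−0.33, adjusted p = 0.0401) lower in palbociclib cells, with the RBL1 call lost without any of 5 of the 6 libraries. Same-numbered libraries were taken to pair here, and with the number as a block CDK4 and RBL2 were called as well. The block fit called 6808 of 13776 genes. Against bleomycin cells CCND1 (0.53), CCNE1 (0.96), CDK4 (0.35) and CDK6 (0.51) were higher, 4 members against 30.6% of all genes. RBL1 was added with the block, which called 5435 of 13829 genes. The CDK4 call was lost without palbociclib replicate 1, palbociclib replicate 2 or bleomycin replicate 1.

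All 10 members differed between palbociclib and doxorubicin cells, where 25.0% of all genes were called. CCND1 (0.79 ± 0.10), CDK6 (0.52), RBL2 (0.44), CCNE1 (0.36) and CDK4 (0.29) were higher and CCNE2 (−1.32 ± 0.25), RBL1 (−0.97 ± 0.11), CCND3 (−0.46), CDK2 (−0.38) and RB1 (−0.26) lower in palbociclib cells. With all 24 libraries in one fit 6 remained called, and CCNE1, CDK2, CDK4 and RB1 did not. The RB1 call was also lost without any of 5 of the 6 libraries, the CDK2 call without any of 3, and the CCNE1 and CDK4 calls without doxorubicin replicate 1. Against alisertib cells 7 members were called, against 28.3% of all genes. CCND1 (0.77) and CDK6 (0.81) were higher and CCNE2 (−1.61), RBL1 (−1.10), CDK2 (−0.71), CCND3 (−0.54) and RB1 (−0.32) lower in palbociclib cells. CDK4 and RBL2 were added with the block, which called 5527 of 13846 genes. CCNE1 did not pass against alisertib cells (0.03, −0.21 to 0.27, adjusted p = 0.83).

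**Figure D3:**
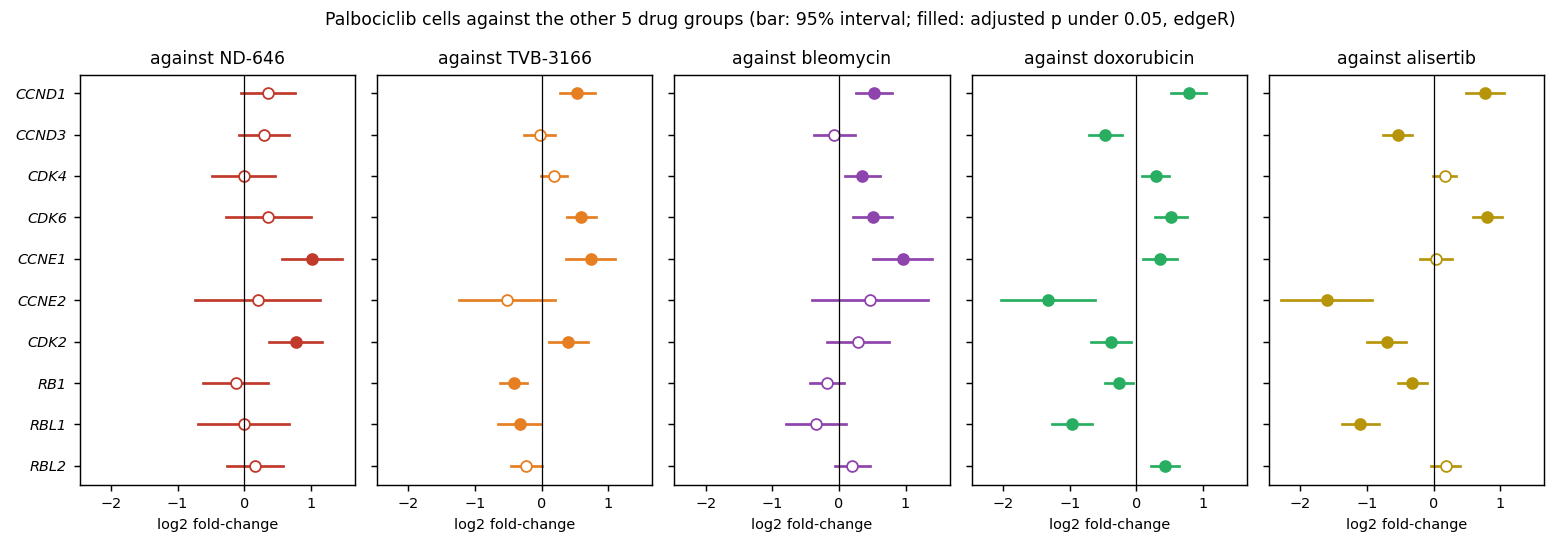
log2 fold-change (horizontal axis) of the 10 genes in palbociclib cells against each of the other 5 drug groups, with a bar for the 95% interval and a filled point at an adjusted p under 0.05 by edgeR. CCND1 and CDK6 lie to the right of 0 in each panel, with open points against ND-646 cells, and CCNE1 lies at 0.03 against alisertib cells and at 1.02 against ND-646 cells.

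Other genes of the same pathway were read as lists of symbols. Of 17 E2F target genes of S phase, 17 fell against day 0 in ND-646, TVB-3166 and bleomycin cells, 16 in palbociclib and doxorubicin cells and 14 in alisertib cells, and 0 rose. The median log2 fold-change was −2.31 in ND-646 cells, −1.49 in palbociclib cells and −0.43 in alisertib cells. Against day 7, 17 fell in ND-646, TVB-3166 and bleomycin cells, 16 in palbociclib, 15 in doxorubicin and 8 in alisertib cells, where the median was −0.25. RRM2, the small subunit of ribonucleotide reductase, had a log2 fold-change from day 0 of −3.87 in ND-646 and −2.79 in palbociclib cells, and TYMS, thymidylate synthase, had −3.56 and −2.79. Of 10 E2F and DP factors, 6 fell and 1 rose in ND-646 cells and 5 fell and 4 rose in palbociclib cells against day 0, while against day 7 the numbers were 8 and 0 in ND-646 cells and 5 and 3 in palbociclib cells. E2F2 had −3.85 and −2.41, and E2F8 had −3.57 and −2.36. The 4 that rose in palbociclib cells were E2F3 (0.57), E2F4 (0.49), E2F5 (2.0) and TFDP2 (1.01), of which E2F4 and E2F5 are the known partners of p130, and E2F5 was the 1 that rose in ND-646 cells (1.03). Against day 7, E2F5 had 0.91 in palbociclib cells (adjusted p = 0.000569) and −0.07 in ND-646 cells (adjusted p = 0.836), and E2F4 had 0.24 in palbociclib cells (adjusted p = 0.0859). MYBL2, which takes the place of the pocket proteins on MuvB in cycling cells, fell in all 6 drug groups (−3.97 in ND-646 and −2.82 in palbociclib cells), whereas of the 5 MuvB core genes 2 fell in ND-646 cells and 1 in palbociclib cells. MYBL2 also fell in all 6 groups against day 7. With that reference, 4 of the 6 genes of MYBL2 and the MuvB core fell in ND-646 cells and 1 in palbociclib cells, and 0 rose.

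Regulators of the kinases were read in the same way, first against day 0. Of 7 CDK inhibitor genes 6 were tested, and 2 rose and 1 fell in ND-646 cells, while 3 rose and 2 fell in palbociclib cells. CDKN2B (p15), an inhibitor of CDK4/6, rose in all 6 drug groups, by log2 1.27 in ND-646 and 2.98 in palbociclib cells, and CDKN2C (p18), of the same family, fell in all 6 (−1.82 and −1.77). CDKN1A (p21) rose in 4 groups, by 1.82 in ND-646 cells (adjusted p = 0.00906) and 0.73 in palbociclib cells (adjusted p = 0.0327). The ND-646 libraries spread widely for CDKN1A (55.4 ± 28.5 CPM, SD). Of 7 CDC25 phosphatases and CDK regulators, 5 fell in ND-646 and 6 in palbociclib cells, among them PKMYT1 (−2.78 and −1.74) and CDC25A (−2.29 and −1.76). CCNA2 and CDK1 were the 2 tested of 5 other cyclins and kinases, and both fell in all 6 drug groups (CCNA2 −3.10 in ND-646 and −2.20 in palbociclib cells). Of 3 genes of the CDK-activating kinase, 0 changed in ND-646 cells and CDK7 rose in palbociclib cells (0.32, adjusted p = 0.0281). Of 9 ubiquitin ligase parts, 2 fell in ND-646 cells, CCNF (−2.38) and SKP2 (−1.16), and in palbociclib cells 3 fell and 1 rose, with CCNF at −1.63 and FBXW7 at 0.69. Of 6 genes of mitogen input, FOXO3 rose in both (0.94 and 0.76), as did ERBB3 (0.63 and 0.37), while MYC fell in ND-646 cells (−0.58, adjusted p = 0.0223) and rose in palbociclib cells (0.58, adjusted p = 0.00728). Against day 7, MYC had −1.12 in ND-646 cells (adjusted p = 0.00207) and 0.04 in palbociclib cells (adjusted p = 0.855), and FOXO3 and ERBB3 again rose in both. Against that reference 2 CDK inhibitor genes rose and 2 fell in ND-646 cells and 3 rose and 3 fell in palbociclib cells, with CDKN2B higher in all 6 drug groups, CDKN1A higher in 5 and CDKN2C lower in 5, alisertib being the exception to both. Of the CDC25 list 5 fell in ND-646, 7 in palbociclib and 1 in alisertib cells, CCNA2 and CDK1 fell in all 6 groups, and the ubiquitin ligase list had 2 lower in ND-646 cells and 3 lower and 1 higher in palbociclib cells. The CDK-activating kinase list against day 7 had 0 called in ND-646 cells and 1 higher in palbociclib cells. The mitogen list had 2 higher and 1 lower in ND-646 cells and 3 higher and 0 lower in palbociclib cells. In untreated day-7 cells 1 gene of the 9 lists was called against day 0, E2F5 (1.11 ± 0.19, adjusted p = 0.0474).

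**Figure D4:**
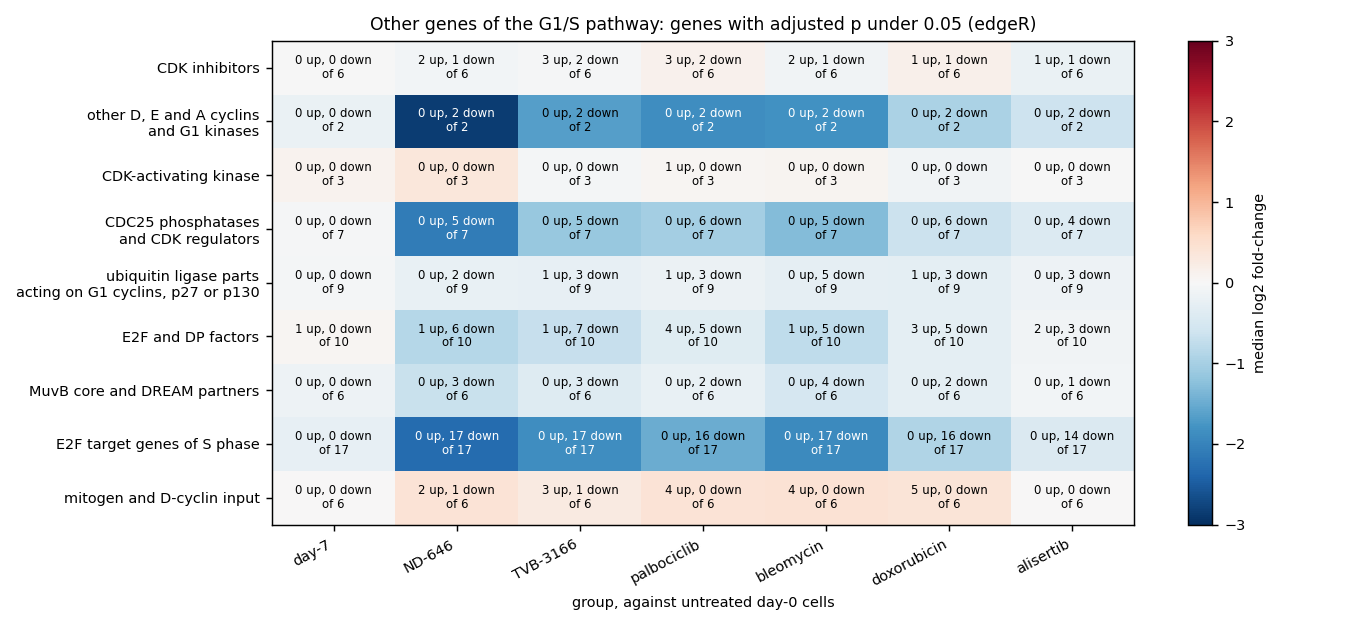
Median log2 fold-change (colour) against untreated day-0 cells of 9 lists of pathway genes in 7 groups, with the number of genes called higher (up) and lower (down) by edgeR of those tested. The S phase list stands at 17 of 17 down in ND-646, TVB-3166 and bleomycin cells, and the day-7 column holds 1 called gene.

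The members with the widest range were also matched to other genes by Pearson correlation of log2 CPM over the 24 libraries, among 14068 genes. These correlations span the 8 groups and share their scaling, and they are given as a description. For CCNE2 the closest were WDR76 (r = 0.975), LMNB1 (0.971) and MCM6 (0.970). For CDK2 they included MCM7 (0.982) and RECQL (0.980), and for CCND3 they were VARS2 (0.968), RBM14 (0.966) and RRM1 (0.964). MCM6, MCM7 and RRM1 encode parts of the replication machinery and of nucleotide supply.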

How the data were processed

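RNA was measured in 24 SKBr3 libraries, 8 groups of 3 by the labels. Per the labels and the study's methods, the authors aligned paired reads to GRCh37 with HISAT2 and used StringTie, and the deposited values are read counts per gene. The counting settings, the annotation release and whether reads were counted by strand are not given in the sources used here. The labels name a stranded mRNA library kit and the methods a stranded total RNA kit. Since the lowest count in the table is 1, genes without reads in a library are not listed.

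Each of 19 comparisons was fitted on its own 6 libraries with edgeR 4.0.16 (R 4.3.3, filterByExpr, TMM, quasi-likelihood test) over 13604 to 13874 genes, and a call is a Benjamini-Hochberg adjusted p under 0.05. The fitting code was tried on counts simulated for ND-646 against day-0 cells, with the same dispersion for all genes and no outlying library. That trial does not cover the other comparisons or the spread of the real libraries. DESeq2 1.42.0 was an alternative, as were RLE factors, other filters, 1 fit of all 24 libraries, the rule of at least 2-fold and an unadjusted p under 0.05, a block for the replicate number, and fits without each library in turn. No 2 libraries were identical. log2 CPM used a prior count of 2. Exon lengths came from a GENCODE annotation of GRCh37, and promoters from RefSeq.

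Same-numbered libraries were taken to pair where their deviations from the group means correlated above 0.1 in all 3 pairs. This held in 7 comparisons, namely bleomycin and alisertib against day 7, TVB-3166 against ND-646, and palbociclib against TVB-3166, bleomycin, doxorubicin and alisertib (r = 0.105 to 0.380). The pairing comes from the shared numbers and these correlations, since neither the labels nor the methods say what a number marks. Libraries with different numbers were not correlated, so the values do not show that the number is what the libraries share. Palbociclib against ND-646 did not pass (r = −0.0111 for replicate 2), although both passed with TVB-3166.

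The 10 members and the pathway lists were chosen with earlier results of these data known. From each list the genes with the largest change in ND-646 and palbociclib cells were named, and any further gene was named after its values were seen. For the 3 members with the widest range, the 3 genes with the highest correlation were named, apart from an item not reported here.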

Additional observations from a re-analysis of the deposited data

How the results depend on the processing

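Apart from the rule of at least 2-fold, 146 of 228 alternative settings over the 19 comparisons called the same members, and no member's value changed direction in a call. In untreated day-7 against day-0 cells DESeq2, the fit of all 24 libraries and the replicate block each called 2 members in place of 0, and leaving out a library gave 0 to 1, with RBL2 called without day-0 replicate 1. Under the rule of at least 2-fold and an unadjusted p under 0.05, against day 0 the members called numbered 6 in palbociclib, 5 in ND-646, 4 in TVB-3166 and bleomycin, and 1 in doxorubicin and alisertib cells. The share of all genes passing this rule was not counted. Under that rule against day 7 the members numbered 5 in ND-646, 3 in TVB-3166, 4 in palbociclib and bleomycin, and 0 in doxorubicin and alisertib cells. For palbociclib they numbered 1 against ND-646 and doxorubicin, 0 against TVB-3166 and bleomycin, and 2 against alisertib cells. Leaving out a library gave 4 to 9 members in alisertib against day-0 cells, with 5 without day-0 replicate 2, day-0 replicate 3 or alisertib replicate 1 and 4 without alisertib replicate 2. It gave 1 to 5 in alisertib against day-7 cells, with 5 without day-7 replicate 2, 1 without day-7 replicate 3 or alisertib replicate 2, and 2 without any of the other 3. Leaving out a library gave 0 to 1 in TVB-3166 against ND-646 cells and 2 to 4 in palbociclib against ND-646 cells, in both from ND-646 replicate 1. Palbociclib against doxorubicin cells gave 6 in the fit of all 24 libraries. In the comparisons taken as paired, the replicate block gave 5 members in alisertib against day-7 cells. It added the members named in the report for palbociclib against TVB-3166, bleomycin and alisertib cells, and it changed no other call in the comparisons taken as paired. In comparisons not taken as paired, the block also added CDK6 in ND-646 against day-7 cells. Over all genes, the calls between untreated groups were 80, against 1132 with DESeq2, 0 with no filter, 441 in the fit of all 24 libraries and 1263 with the block, and those between TVB-3166 and ND-646 cells were 98, against 765, 32, 1268 and 310. The fit of all 24 libraries gave 7878 in place of 5157 genes in ND-646 against day-0 cells, 7059 in place of 4692 against day 7, and 6180 in place of 3460 in palbociclib against ND-646 cells. It gave 1141 in place of 2627 in alisertib against day-7 cells, 2098 in place of 3472 in palbociclib against doxorubicin cells and 2475 in place of 3916 against alisertib cells, while the block gave 4141 in alisertib against day-7 and 5949 in palbociclib against doxorubicin cells. With a library left out the calls over all genes ran from 0 to 94 between the untreated groups, 0 to 1518 between TVB-3166 and ND-646, 1388 to 5859 between palbociclib and ND-646, 1062 to 2800 in alisertib and 2714 to 7618 in ND-646 against day 7, 3460 to 7573 in ND-646 and 3128 to 5205 in alisertib against day 0, and for palbociclib 2293 to 4023 against bleomycin and 1907 to 3389 against doxorubicin cells. The cause of these differences was not tested. With 3 libraries a group, differences of the size of the wider intervals, as for CCNE2 and CDK6 in ND-646 cells, cannot be resolved.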
